A study of Mus musculus with 29 samples.

Results

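The comparison described here set digit tips of nerve-injured mice against those of sham-operated mice 7 days after the tip had been amputated, and it used 6 of the 29 libraries of the series, 3 from each surgery. The 6 libraries were taken from the labels and belong to a time course of 17 libraries that also covers days 14 and 21. The SNI (spared nerve injury) mice had 2 of the branches of the left sciatic nerve, the common peroneal and the tibial, cut, and the SHAM mice had the same operation with the nerve left whole. All mice of both groups then lost the tip of a left hindlimb digit through the third phalanx 5 days after that surgery, so the controls are regenerating digits too. Each library is labelled as a separate biological replicate of poly(A) RNA from the whole digit beyond its basal joint with the nail taken off, which joins skin, bone, marrow, vessels and nerve in one extract. The labels used here name no strain, age or sex. In the spared nerve injury model the sural branch is left intact, so the digit need not be without any nerve.

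A peripheral axon that is cut off from its cell body degenerates, and the Schwann cells that had wrapped it in myelin switch off their myelin genes, clear the debris and take up a repair state that guides regrowing axons. The mouse digit tip regrows after amputation through the last bone: bone is first resorbed by osteoclasts, the wound is closed by epidermis, and a blastema of mesenchymal cells then rebuilds bone and connective tissue. Nerves are known to reach into each of these tissues through neuropeptides and growth factors. RNA from a whole digit measures the sum over its cells, and fewer cells of a type cannot be told apart from less RNA per cell.

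The 6 libraries held between 43199732 and 45715611 counts, so that counting depth was nearly equal. SNI replicate 2 stood apart from the other 5. Its trimmed-mean scaling factor was 0.761 against 1.02 to 1.11, and its log2 CPM (CPM being counts scaled to a common library size with those factors) correlated with the other libraries at a Pearson r of 0.835 to 0.934 across genes, against 0.946 to 0.988 for the other pairs. Granule genes of immature neutrophils led it. S100a8, which encodes a neutrophil calcium-binding protein, stood at 4422 CPM there, and in the other 5 libraries it lay between 5.05 and 54.8 CPM. Mpo, the myeloperoxidase of granules made in bone marrow, stood at 673 CPM and nowhere else above 15.8 CPM. The 15 genes that exceeded the other libraries by most in it were Ms4a3, Chil3, S100a9, Prtn3, S100a8, Camp, Ctsg, Elane, Trem3, Ifitm6, Fcnb, Retnlg, Ly6c2, Fpr2 and Ngp. The genes it lacked most were those of nail and hair and of bone matrix (Krtap16-1, Col1a1, Vsig8, Lrrc15, Tchh, Krt86, Krt83, Krt31, 4732456N10Rik and Krt42). Col1a1, the main collagen of bone, stood at 51.6 CPM against 1442 to 6640 in the other 5. List medians are therefore given with all 6 libraries and without this one, and a log2 fold change of a single gene is that with all 6 libraries where nothing else is said.

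A second property differed between the surgery groups over all 6 libraries of day 7. Long transcripts were less abundant and short transcripts more abundant in SNI than in sham. Among 275 genes with transcripts over 8000 nucleotides the median log2 fold change was -1.14, and among 2622 genes with transcripts up to 1000 nucleotides it was 0.50. These medians were -0.82 and 0.29 without SNI replicate 2. The deviations of each library were correlated with log2 transcript length across genes. Pearson r at day 7 was 0.413, 0.255 and 0.0661 in sham and -0.0975, -0.403 and -0.361 in SNI, so the groups did not overlap. At day 14 it was 0.36, 0.324 and 0.394 in sham and 0.363, -0.38 and -0.39 in SNI. At day 21 it was -0.493 and 0.278 in sham and 0.167, -0.42 and -0.475 in SNI. On both later days the groups overlapped. The cytosolic ribosomal protein genes, which are short, took 5.18, 6.74 and 7.70% of all CPM in sham and 8.42, 18.2 and 11.4% in SNI. Of 86 such genes tested 79 had a positive log2 fold change, with a median of 1.23, of 0.65 without SNI replicate 2, and of 0.42 without it and with the length trend of each library taken out. Values with that trend taken out are called length-adjusted below. They are given for each list whose median is given below and was moved by over 0.2 with all 6 libraries, and for some single genes. They rest on 14830 genes with a known transcript length.

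**Figure D1:**
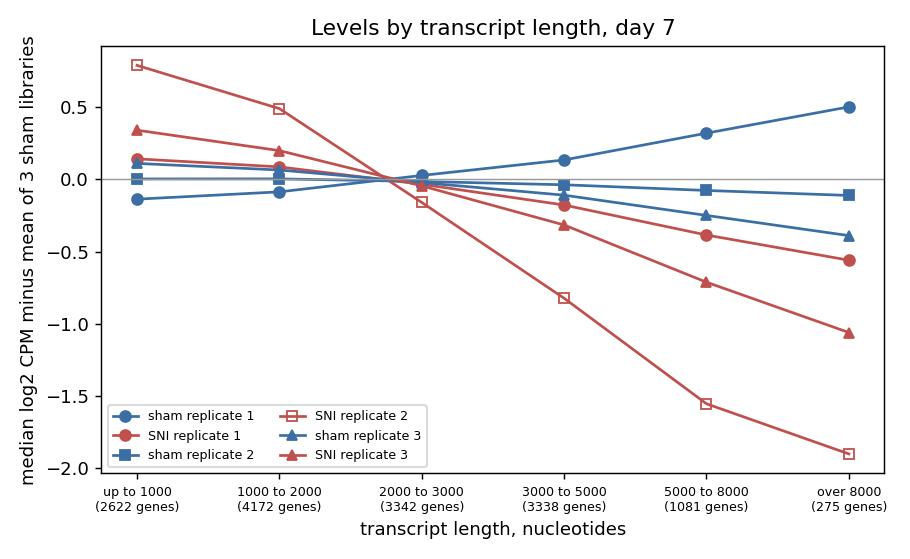
Median deviation of each day 7 library from the mean of the 3 sham libraries (vertical axis, log2 CPM) in 6 classes of transcript length (horizontal axis, nucleotides, with the number of genes); blue, sham; red, SNI; open squares, SNI replicate 2. In the class over 8000 nucleotides the 3 SNI libraries lie lowest and SNI replicate 2 stands at -1.90; in the class up to 1000 nucleotides the 3 SNI libraries lie highest.

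Across 16084 genes, edgeR's quasi-likelihood test with Benjamini-Hochberg adjustment called 0 genes between SNI and sham at an adjusted p under 0.05 (0.0% of the genes tested), and the smallest adjusted p was 0.301. At an unadjusted p under 0.05 there were 2191 genes (13.6%), 1216 higher in SNI (7.56%) and 975 lower (6.06%). Without SNI replicate 2 the same test called 0 of 16036 genes, with a smallest adjusted p of 0.787, and 376 genes (2.34%) had an unadjusted p under 0.05, 245 higher (1.53%) and 131 lower (0.817%). DESeq2 called 54 genes with all 6 libraries, 40 higher and 14 lower, and 4 without SNI replicate 2. Those 4 (Ccl21c, Gm2506, Gm13304 and Hist2h2aa1) were named after their values were seen, and Ccl21c and Hist2h2aa1 belong to families of near-identical copies between which reads can be split. In that order their log2 fold changes by DESeq2 without SNI replicate 2 were -24.5, -17.8, 24.6 and -24.6. Values of that size are not read as sound differences for any of the 4. limma voom with sample quality weights, which gave SNI replicate 2 a weight of 0.171, called 7744 genes with all 6 libraries and 0 without that library. Without that library 3624 genes had an unadjusted p under 0.05 by voom. No single gene below passed the edgeR test, so values for a gene are read against its spread over libraries, and ± marks the standard error of a log2 fold change. The adjusted p by edgeR of the genes named below lay between 0.301 and 0.866 with all 6 libraries and between 0.787 and 0.995 without SNI replicate 2. The 3 SNI libraries all lay above the 3 sham libraries for 2202 genes (13.7%) and all below for 3820 (23.8%). When SNI replicate 2 was left out these were 2568 genes (16.0%) and 4113 genes (25.6%). Of all genes 51.0% had a positive and 49.0% a negative log2 fold change, and without SNI replicate 2 53.3% and 46.6%. These shares are the background for the counts in each gene group.

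Genes of the myelin sheath were lower in the SNI libraries, and their list had the lowest median of the 48 lists with all 6 libraries and also without SNI replicate 2. Of 17 genes, all tested, 14 had a negative log2 fold change (beside 49.0% of all genes), and the median was -1.39 with all 6 libraries, against 0.02 over all genes tested. The libraries did not overlap for 6 of the 17, all of them lower in SNI (beside 23.8% of all genes), and 10 were lower with an unadjusted p under 0.05 (beside 6.06% of all genes). Without SNI replicate 2 that last count was 6 (beside 0.817%), 7 did not overlap, and the median was -1.14. Length-adjusted, the median was -0.95 with all 6 libraries and -1.20 without SNI replicate 2.

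Mbp, the basic protein that compacts the myelin membrane, stood at 111, 105 and 50.5 CPM in sham and at 49.6, 18.9 and 28.6 CPM in SNI, with no overlap but with sham replicate 3 and SNI replicate 1 next to each other. Its log2 fold change was -1.46 ± 0.35 and -1.14 ± 0.36 without SNI replicate 2. Pmp22, a myelin membrane protein that skin cells also make, stood at 149, 148 and 94.4 CPM in sham and at 97.7, 69.5 and 78.5 CPM in SNI, a log2 fold change of -0.67 ± 0.21, and of -0.52 ± 0.23 without SNI replicate 2.

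Prx and Drp2 encode the periaxin and dystrophin-related protein that anchor the myelinating Schwann cell to its basal lamina. Prx stood at 29.8, 22.9 and 7.93 CPM in sham and at 8.73, 1.40 and 2.81 CPM in SNI, with a log2 fold change of -2.22 ± 0.74, and of -1.75 ± 0.78 without SNI replicate 2. Drp2 stood at 11.9, 8.36 and 3.00 CPM in sham and at 2.74, 0.122 and 0.909 CPM in SNI, without overlap, with a log2 fold change of -2.60 ± 0.90, and of -2.03 ± 0.85 without SNI replicate 2. For both genes the order of the libraries was that of Mbp in sham: replicates 1 and 2 high and replicate 3 low. Ugt8a, which makes the galactolipids of myelin, stood at 1.43, 1.67 and 1.01 CPM in sham and at 0.681, 0.639 and 0.244 CPM in SNI. Its log2 fold change of -1.39 ± 0.43 became -1.51 ± 0.50 without SNI replicate 2. Ncmap, a small myelin membrane protein, had a log2 fold change of -1.29 ± 0.51, or -1.0 ± 0.56 without SNI replicate 2, and its groups overlapped. The 3 genes of the list with a positive value with all 6 libraries were Cnp (0.05), Mal (0.25) and Gal3st1 (0.46), named after their values were seen.

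**Figure D2:**
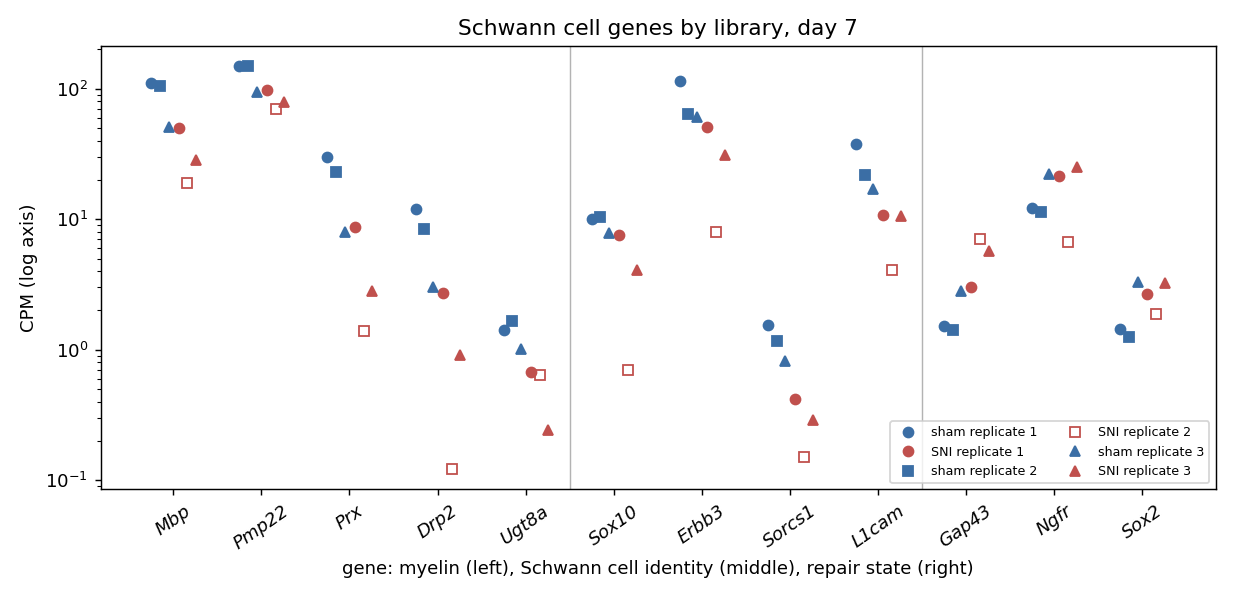
CPM on a log axis of 12 Schwann cell genes in each day 7 library; blue, sham; red, SNI; open squares, SNI replicate 2; the shape gives the replicate number. Mbp spans 111 to 50.5 CPM in sham and 49.6 to 18.9 CPM in SNI; for Drp2, Ugt8a and Mbp all SNI points lie below all sham points, and for Gap43 all lie above.

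The upstream sequences of 2 myelin genes whose 5 libraries did not overlap without SNI replicate 2 are shown, because Egr2, an early growth response factor, and Sox10 are the factors known to switch myelin genes on. For 5 of 12 myelin and Schwann cell identity genes without overlap, with or without that library, a sequence was taken from the RefSeq promoter table (GRCm38.p6). Genes of 1 chromosome were left out of that choice, though not of the promoters used as background below. The genes of the 12 without a sequence taken were not searched. Each sequence is the 250 bases before the annotated start, 5′ to 3′ on the minus strand, and capitals mark the letters GTGGGNG, an early growth response motif, searched on both strands.
Mag, chr7:30914864-30915113: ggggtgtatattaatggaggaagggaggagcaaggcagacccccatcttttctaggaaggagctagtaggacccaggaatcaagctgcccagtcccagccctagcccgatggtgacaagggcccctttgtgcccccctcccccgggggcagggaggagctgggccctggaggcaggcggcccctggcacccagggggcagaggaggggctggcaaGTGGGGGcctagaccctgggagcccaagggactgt
Gjc3, chr5:137963099-137963348: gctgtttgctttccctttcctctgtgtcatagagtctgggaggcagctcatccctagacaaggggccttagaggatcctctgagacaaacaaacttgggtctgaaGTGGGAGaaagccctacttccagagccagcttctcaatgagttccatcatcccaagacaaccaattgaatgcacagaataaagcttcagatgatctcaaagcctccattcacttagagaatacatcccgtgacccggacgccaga
Of the 5 sequences 4 hold that motif, as do 27.8% of 27018 promoters in windows of the same length, and 1 holds a SOX core motif (the letters ACAAAG, or else ACAATG, or else ACAATA, on either strand), as do 30.9% of the promoters. The 4 include Ugt8a, whose start in that table did not match a transcript start of another annotation, so its sequence is not printed. The 5 genes were chosen by their values in these data, so these counts are a description and no test. A match of letters describes the sequence and is no measured site. Mag, the myelin-associated glycoprotein that faces the axon, stood at 1.47, 1.57 and 0.461 CPM in sham and at 0.340, 0.639 and 0.111 CPM in SNI. Gjc3, a connexin of Schwann cells, stood at 1.56, 1.51 and 0.818 CPM in sham and at 0.601, 0.608 and 0.244 CPM in SNI. Both were low genes, and sham replicate 3 was again the lowest sham library.

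Genes of Schwann cell identity that do not belong to the sheath were closer to the sham level. Of 14 genes 12 had a negative log2 fold change, with a median of -0.59, of -0.39 without SNI replicate 2 and of -0.34 length-adjusted without it. For 5 of 14 the libraries did not overlap, all lower in SNI (beside 23.8% of all genes). On that side 2 had an unadjusted p under 0.05 (beside 6.06% of all genes). Sox10, the factor that specifies the lineage, stood at 10.1, 10.5 and 7.91 CPM in sham and at 7.55, 0.7 and 4.10 CPM in SNI. The lowest value was that of SNI replicate 2, and the log2 fold change was -1.20 ± 0.88 with it and -0.66 ± 0.87 without it. Erbb3, the neuregulin receptor of Schwann cells that keratinocytes also carry, stood at 114, 63.9 and 60.3 CPM in sham and at 50.7, 8.03 and 31.3 CPM in SNI. Its log2 fold change of -1.40 ± 0.85 was -0.91 ± 0.89 without SNI replicate 2 and -0.71 length-adjusted. Sorcs1, a sorting receptor, stood at 1.54, 1.16 and 0.818 CPM in sham and at 0.420, 0.152 and 0.288 CPM in SNI, with a log2 fold change of -2.0 ± 0.57 and of -1.67 ± 0.63 without SNI replicate 2. L1cam, an adhesion molecule of axons and non-myelinating Schwann cells, had a log2 fold change of -1.59 ± 0.87 without overlap of libraries, and -1.21 ± 0.99 without SNI replicate 2. Egr2 itself, which immune and skin cells make as well, had -0.59 ± 0.28, and -0.30 ± 0.27 without SNI replicate 2. S100b, a calcium-binding protein of all Schwann cells, was at 9.09, 11.0 and 8.35 CPM in sham and at 10.0, 13.8 and 10.8 CPM in SNI, so its groups overlapped.

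Genes of the repair state did not shift as a list: 6 of 14 were positive, and the median was -0.08, or 0.14 without SNI replicate 2. Gap43, a growth-associated protein that denervated Schwann cells and regrowing axons make, was the 1 member of 14 whose SNI libraries all lay above sham. Of all genes 13.7% did so. Gap43 was at 1.52, 1.41 and 2.83 CPM in sham and at 3.00, 7.06 and 5.74 CPM in SNI. Its log2 fold change was 1.45 ± 0.38 and 1.22 ± 0.39 without SNI replicate 2. Across the 6 libraries Gap43 was high where Mbp was low: sham replicate 3 and SNI replicate 1 were next to each other in the middle for both. Ngfr, the low-affinity neurotrophin receptor of repair cells, stood at 12.1, 11.5 and 22.2 CPM in sham and at 21.3, 6.72 and 25.1 CPM in SNI. Sox2, a factor of immature Schwann cells, stood at 1.45, 1.24 and 3.29 CPM in sham and at 2.66, 1.89 and 3.26 CPM in SNI. On the other side 3 of the 14 members lay below sham in all SNI libraries, beside 23.8% of all genes. They were Jun, an early transcription factor described below, Clcf1, a cytokine of the interleukin-6 family, and Gfap, a filament protein of non-myelinating glia. Clcf1 had a log2 fold change of -0.50 ± 0.26, and -0.55 ± 0.29 without SNI replicate 2. Gfap was rare, at 0.671 CPM or less in each of the 6 libraries, and was named after its values were seen. For Ngfr and Sox2 the groups overlapped and sham replicate 3 was the highest sham library. Shh, which repair cells are known to make, had a log2 fold change of -0.70 ± 0.72, and -0.14 ± 0.56 without SNI replicate 2. Of 13 genes of sensory neurons, whose cell bodies lie outside the digit, 5 passed the filter on low counts, and their median was 0.01.

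The 12 higher and 12 lower genes with the smallest p without SNI replicate 2, among those whose libraries did not overlap with all 6, show the clearest single-gene differences, though none was called by edgeR. For 1847 genes on the higher side and 3465 on the lower side the conditions of that choice were met. Since the choice used these values, they are given as a description. DESeq2 called 3 of the 12 higher genes (Cgref1, Mgp and Hvcn1) and 7 of the 12 lower genes (Lyve1, Carns1, Mbp, Cadm2, Scg3, Slc25a25 and Prex2) with all 6 libraries and none of the 24 without SNI replicate 2.

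Of the higher genes, Kdelr3, a receptor that returns chaperones to the endoplasmic reticulum, stood at 10.5, 11.2 and 10.7 CPM in sham and at 28.2, 14.1 and 16.6 CPM in SNI, with a log2 fold change of 0.87 ± 0.26, and of 1.10 ± 0.26 without SNI replicate 2. Pycr1, the last enzyme of proline synthesis, stood at 0.871, 1.35 and 1.05 CPM in sham and at 3.56, 1.98 and 2.19 CPM in SNI. Cthrc1, a secreted protein of activated fibroblasts and bone-forming cells, stood at 9.47, 7.87 and 7.11 CPM in sham and at 48.9, 12.1 and 15.0 CPM in SNI. For these 3 genes SNI replicate 1 was the highest library. Mgp, the matrix Gla protein that restrains calcification, was even within groups, at 60.7, 76.7 and 76.7 CPM in sham and at 118, 136 and 141 CPM in SNI. Its log2 fold change was 0.88 ± 0.22 and 0.90 ± 0.25 without SNI replicate 2.

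Cdo1, which starts the breakdown of cysteine to taurine, stood at 11.6, 9.90 and 7.78 CPM in sham and at 21.7, 17.8 and 19.5 CPM in SNI, a log2 fold change of 1.01 ± 0.27. Cgref1, a secreted calcium-binding growth regulator, stood at 6.59, 5.12 and 5.89 CPM in sham and at 18.3, 12.2 and 9.75 CPM in SNI, a log2 fold change of 1.19 ± 0.28. The groups were well separated for both. Gpx7, a peroxidase of the endoplasmic reticulum, had a log2 fold change of 0.75, and B3gnt9, a glycosyltransferase, of 0.58. Angpt1, the vessel-stabilising ligand of the Tie2 receptor, had 0.53, Prr5l, a partner of the mTORC2 kinase complex, 0.47, and Fam109b, an endosomal protein, 0.80. Hvcn1, a proton channel of phagocytes, was at 22.3 CPM in SNI replicate 2 while SNI replicates 1 and 3 had 6.83 and 8.42 CPM and sham 3.91 to 5.5 CPM. With the length trend taken out 11 of the 12 genes could be fitted, and all 11 kept a positive sign (54.8% of all genes are positive there). Of these 7 had an unadjusted p under 0.05 (9.08% of all genes). The genes were chosen by sign and p in the same libraries, so these counts are a description and no test.

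Of the lower genes, Lyve1, the hyaluronan receptor of lymphatic vessels and some macrophages, stood at 39.9, 32.6 and 22.0 CPM in sham and at 15.1, 13.9 and 16.2 CPM in SNI, a log2 fold change of -1.07 ± 0.24. Carns1, which makes carnosine, stood at 19.4, 7.70 and 7.03 CPM in sham and at 4.69, 2.89 and 3.21 CPM in SNI, a log2 fold change of -1.66 ± 0.37. Without SNI replicate 2 the log2 fold changes were -0.97 ± 0.28 for Lyve1 and -1.48 ± 0.42 for Carns1. Sham replicate 1 was far above the other sham libraries for Carns1, while for Lyve1 the SNI libraries lay close together. Scg3, a granin of secretory granules, stood at 7.93, 7.01 and 4.74 CPM in sham and at 2.82, 0.882 and 1.80 CPM in SNI. Cadm2, an adhesion molecule of nerve, stood at 3.24, 2.89 and 2.29 CPM in sham and at 1.26, 0.426 and 0.753 CPM in SNI. Their log2 fold changes were -1.83 ± 0.48 and -1.77 ± 0.45, and -1.46 ± 0.48 and -1.43 ± 0.46 without SNI replicate 2.

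Rasd1, a Ras-like protein induced by glucocorticoids, stood at 9.62, 6.36 and 5.49 CPM in sham and at 3.08, 4.59 and 3.19 CPM in SNI. H19, an imprinted long non-coding RNA, stood at 27.5, 22.5 and 25.1 CPM in sham and at 16.2, 20.2 and 13.4 CPM in SNI. For Rasd1 and H19 SNI replicate 2 was the SNI library nearest to sham. Slc25a25, a mitochondrial ATP-magnesium carrier, and Micu3, a regulator of mitochondrial calcium uptake, had log2 fold changes of -0.76 ± 0.19 and -0.73 ± 0.23. Prex2, an exchange factor for Rac, had -1.09 ± 0.28. Of the 12 lower genes 11 could be fitted with the length trend taken out. Of these 10 kept a negative sign (45.2% of all genes are negative there) with an unadjusted p under 0.05 (5.01% of all genes). These genes too were chosen by sign and p in the same libraries, so the counts are no test. Prex2, whose transcript is the longest of the 12, was at 0.22.

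**Figure D3:**
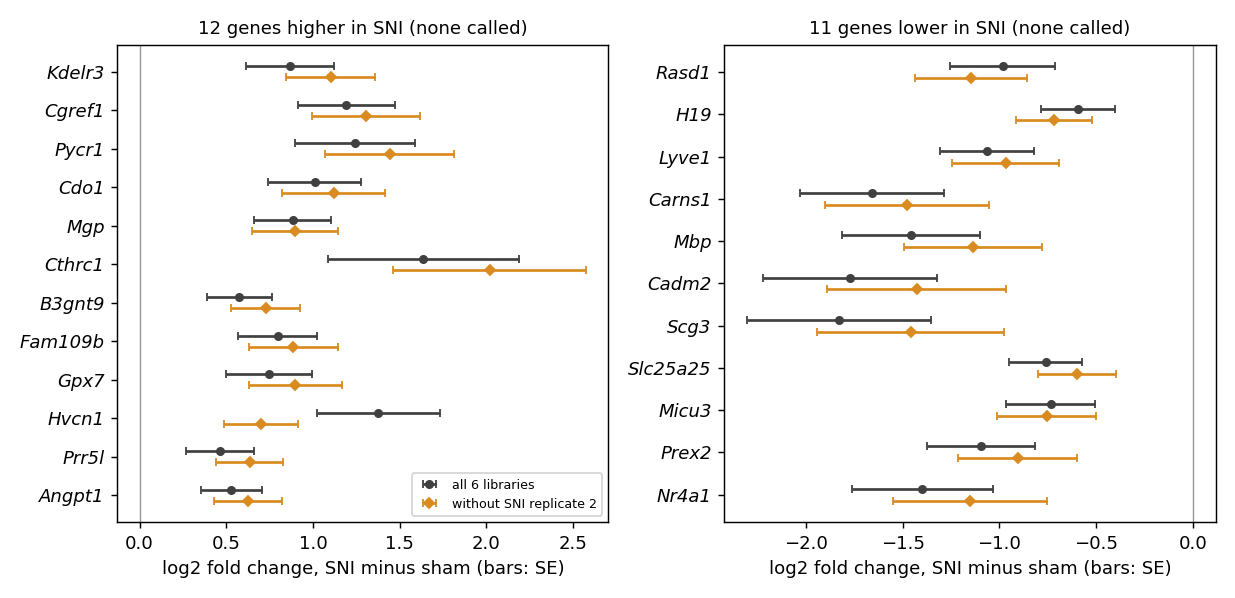
Log2 fold change of SNI minus sham with its standard error for the 12 higher genes (left) and 11 of the 12 lower genes (right), with all 6 libraries (dark circles) and without SNI replicate 2 (orange diamonds). None was called by edgeR; the 2 estimates lie on the same side of 0 for each gene, as the choice of genes requires, and those of Hvcn1 lie farthest apart on the left, at 1.38 and 0.70.

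Immediate early genes, which cells switch on within minutes of a stimulus, were lower in SNI at this day. Of 11 immediate early and heat shock genes 9 had a negative log2 fold change, with a median of -0.81, and of -0.46 without SNI replicate 2. For 7 of 11 (beside 23.8% of all genes) the libraries did not overlap. Fos stood at 77.7, 67.1 and 80.4 CPM in sham and at 30.2, 5.20 and 11.0 CPM in SNI. Its partner gene Fosb stood at 33.7, 20.1 and 28.5 CPM in sham and at 4.37, 1.00 and 8.29 CPM in SNI. Dusp1, a phosphatase that ends MAP kinase signals, stood at 165, 146 and 144 CPM in sham and at 86.3, 48.0 and 46.6 CPM in SNI. The sham libraries were even and the SNI libraries spread, with replicate 1 the highest SNI library for Fos and Dusp1. The log2 fold changes were -2.28 ± 0.86 for Fos, -2.59 ± 0.89 for Fosb and -1.33 ± 0.41 for Dusp1, and without SNI replicate 2 they were -1.81 ± 0.94, -2.08 ± 0.92 and -1.14 ± 0.47. Nr4a1, a nuclear receptor induced in the same way, had -1.40 ± 0.36, Egr1 -1.74 ± 0.92 and Jun -0.81 ± 0.40, and without SNI replicate 2 they had -1.15 ± 0.40, -1.21 ± 0.95 and -0.52 ± 0.43.

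Among blood cell lists the size of the difference depended on SNI replicate 2. The 6 genes of primary granules, made by neutrophil precursors in marrow, summed to 0.625, 27.8 and 4.15 CPM in sham and to 9.49, 2065 and 8.60 CPM in SNI. Without that library 1 of the 6 was positive, and the median went from 6.45 to -0.16. The 6 genes of secondary granules had medians of 6.72 and 1.06, and the late neutrophil genes, of which 9 were tested, 2.93 and 0.43. Length-adjusted with all 6 libraries the medians of these 3 lists were 5.79, 6.44 and 3.55. S100a8 stood at 12.5, 5.05 and 6.48 CPM in sham and at 19.4, 4422 and 54.8 CPM in SNI, and the log2 fold change went from 7.55 ± 1.89 to 2.25 ± 0.96. Its dimer partner S100a9 went from 7.49 ± 1.87 to 2.23 ± 0.95. Keratinocytes of wounded skin also make both proteins. Camp and Ngp, secondary granule genes, had log2 fold changes of 1.02 ± 1.41 and 1.06 ± 1.19 without SNI replicate 2.

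Genes of cytotoxic lymphocytes had 8 of 8 tested members positive with all 6 libraries and 8 of 8 without SNI replicate 2, with medians of 2.42 and 1.03, and of 1.94 length-adjusted with all 6. Gzma, the granzyme A protease of killer cells, was rare, at 0.0670, 0.0204 and 0.0839 CPM in sham and at 0.220, 2.92 and 0.886 CPM in SNI. All SNI libraries exceeded all sham libraries, and the log2 fold change was 4.48 ± 1.01 and 3.25 ± 0.89 without SNI replicate 2. Gzmb, granzyme B, overlapped between the groups, with 3.29 ± 1.14, and 2.09 ± 1.10 without SNI replicate 2. The T cell list had a median of 0.62 (0.45 without SNI replicate 2), 7 of its 9 genes being positive, and its kinase gene Lck did not overlap, with a log2 fold change of 0.89 ± 0.36. Cd3e, a chain of the T cell receptor, was at 1.07, 0.978 and 0.923 CPM in sham and at 1.00, 0.913 and 0.931 CPM in SNI.

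Macrophage genes were split: 11 of 15 were positive, and the median of 0.56 went to 0.18 without SNI replicate 2 and to 0.28 length-adjusted with it. Cx3cr1, the fractalkine receptor, stood at 2.28, 3.85 and 3.69 CPM in sham and at 6.35, 5.87 and 5.19 CPM in SNI, a log2 fold change of 0.82 ± 0.24 and 0.85 ± 0.27 without SNI replicate 2. Lyz2, the lysozyme of macrophages and neutrophils, had 2.44 ± 0.75, and 0.69 ± 0.47 without SNI replicate 2. Cd163, a scavenger receptor of resident macrophages, had -1.10 ± 0.43, and -0.74 ± 0.43 without SNI replicate 2. In the chemokine list 13 of 14 were positive, with a median of 1.47 (1.12 length-adjusted), and 14 of 14 without SNI replicate 2, with a median of 0.61. Cxcl12, which holds stem and immune cells in tissue, stood at 259, 381 and 279 CPM in sham and at 481, 614 and 398 CPM in SNI. Its log2 fold change was 0.70 ± 0.32. Mast cell genes had a median of 0.56 (0.53 without SNI replicate 2), and Tpsb2, their tryptase, stood at 11.6, 23.9 and 17.6 CPM in sham and at 37.0, 29.5 and 36.9 CPM in SNI.

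Adipocyte genes, from the fat of marrow and skin, were higher in SNI with and without the deviating library. Of 10 genes 9 were positive, the median was 1.45 with all 6 libraries and 1.12 without SNI replicate 2, and length-adjusted these were 1.21 and 0.92. For 5 of 10 (beside 13.7% of all genes) the SNI libraries lay above all sham libraries. Their summed level was 184, 275 and 274 CPM in sham and 323, 1342 and 574 CPM in SNI. Adipoq, the hormone adiponectin, stood at 4.69, 12.9 and 9.52 CPM in sham and at 15.1, 87.3 and 31.9 CPM in SNI. Cfd, the adipsin protease, stood at 31.9, 74.0 and 69.0 CPM in sham and at 98.6, 523 and 216 CPM in SNI. In both genes SNI replicate 2 was highest, SNI replicate 3 next and sham replicate 1 lowest. The log2 fold change was 2.31 ± 0.90 for Adipoq, 2.26 ± 0.84 for Cfd and 1.46 ± 0.55 for Plin1, which coats the fat droplet. Leaving out SNI replicate 2 made them 1.41 ± 0.89, 1.46 ± 0.83 and 1.14 ± 0.58, and none of the 10 genes then had an unadjusted p under 0.05, against 5 with all 6 libraries (beside 7.56% of all genes).

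Bone-forming genes differed most between the SNI libraries themselves. The osteoblast and osteocyte genes summed to 7207, 5293 and 3544 CPM in sham and to 14584, 638 and 4696 CPM in SNI. SNI replicate 1 was the highest of the 6 libraries and SNI replicate 2 the lowest. The median over 15 genes was 0.40 with all 6 libraries, where 13 were positive. It was 0.91 without SNI replicate 2, where all 15 were positive, and 1.02 length-adjusted without it. Sost, the Wnt inhibitor sclerostin of osteocytes, stood at 0.781, 0.917 and 1.03 CPM in sham and at 6.01, 0.456 and 4.25 CPM in SNI. Dkk1, another Wnt inhibitor of osteocytes, stood at 0.335, 0.428 and 0.545 CPM in sham and at 2.54, 0.152 and 1.06 CPM in SNI. Without SNI replicate 2 both lay above all sham libraries, with log2 fold changes of 2.54 ± 0.76 and 2.09 ± 0.53, against 1.98 ± 0.86 and 1.53 ± 0.71 with all 6. Bglap, the osteocalcin gene, was at 20.9, 50.6 and 32.8 CPM in sham and at 206, 1.70 and 48.6 CPM in SNI, and its reads can be shared with its near copy Bglap2.

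Osteoclast genes, which break bone down, did not differ as a list: 7 of 13 were positive and the median was 0.05, and 0.11 without SNI replicate 2. Ctsk, the collagen-cleaving cathepsin K, stood at 314, 508 and 518 CPM in sham and at 344, 493 and 861 CPM in SNI. Acp5, the acid phosphatase of osteoclasts, stood at 224, 320 and 331 CPM in sham and at 206, 297 and 521 CPM in SNI. The median of 15 blastema mesenchyme genes was -0.17, 6 of them being positive, and 0.12 without SNI replicate 2, with 10 positive. Msx1, a homeobox gene of the digit tip, stood at 23.6, 26.0 and 23.7 CPM in sham and at 46.8, 12.0 and 19.3 CPM in SNI. Lum, a collagen-binding proteoglycan, stood at 251, 311 and 289 CPM in sham and at 723, 262 and 384 CPM in SNI, and had a log2 fold change of 0.69 ± 0.29, and of 1.01 ± 0.25 without SNI replicate 2. Hard keratins of nail and hair, from tissue left after the nail was taken off, had a median of 0.13, and of 0.64 without SNI replicate 2.

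**Figure D4:**
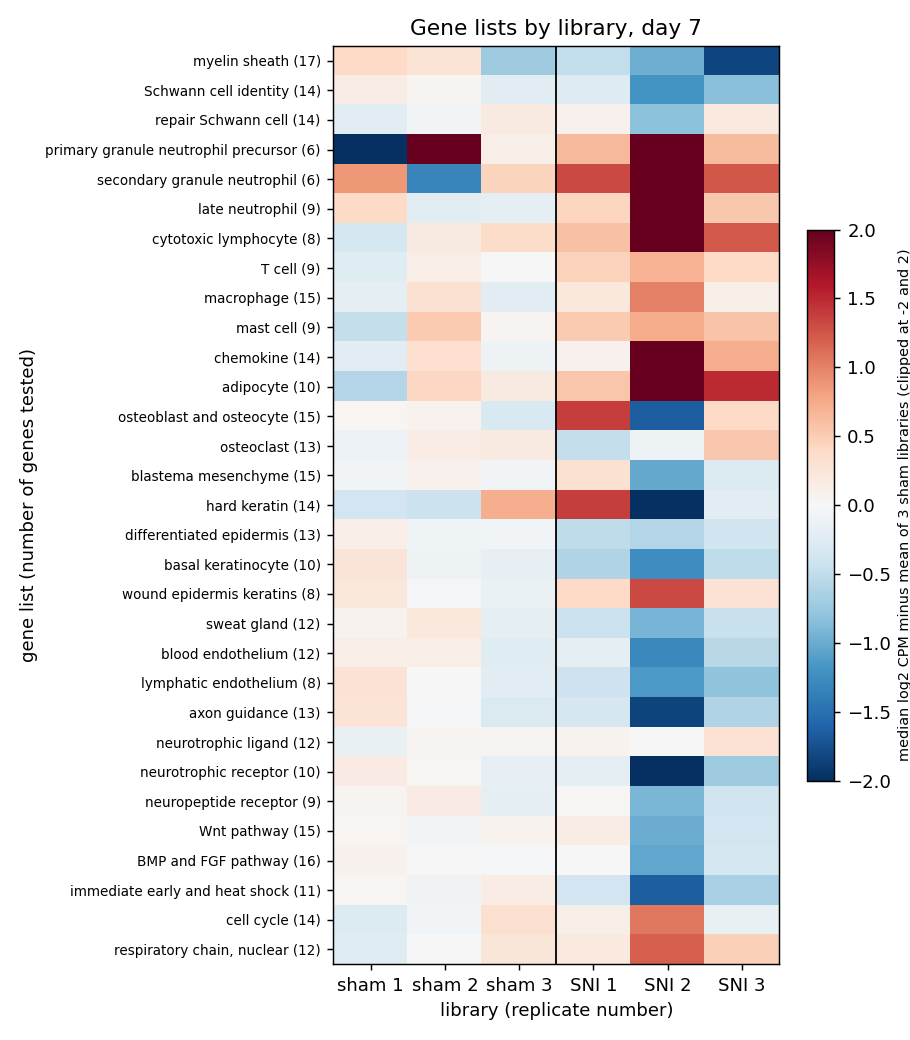
Median log2 CPM of each gene list in each day 7 library after subtracting the mean of the 3 sham libraries per gene; rows, lists with the number of genes tested; columns, libraries; colours stop at -2 and 2. SNI replicate 2 is extreme for neutrophil, adipocyte, hard keratin and neurotrophic receptor genes; myelin genes are lowest in SNI replicate 3, and the osteoblast list is high in SNI replicate 1 and low in SNI replicate 2.

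Most listed genes of the differentiated and of the basal epidermis were on the lower side in SNI. Of 13 differentiated epidermis genes 10 were negative, and the median was -0.48, or -0.40 without SNI replicate 2, and -0.27 length-adjusted with all 6. Krt2, a keratin of the upper layers, stood at 24754, 21938 and 20923 CPM in sham and at 14209, 8503 and 13281 CPM in SNI. Lor, the main protein of the cornified envelope, stood at 10765, 9077 and 9733 CPM in sham and at 6811, 2905 and 2411 CPM in SNI. Neither gene overlapped between the groups, and the log2 fold changes were -0.91 ± 0.37 and -1.29 ± 0.51, and -0.67 ± 0.40 and -1.05 ± 0.59 without SNI replicate 2. Among 10 basal keratinocyte genes 9 were negative, and their median was -0.76, and -0.53 without SNI replicate 2. Length-adjusted it was -0.28 and -0.32. Their summed level went another way, at 11999, 10482 and 10800 CPM in sham and at 8455, 16560 and 10143 CPM in SNI, so that SNI replicate 2 was the highest of the 6 libraries. The gene on the higher side was Krt14, a main keratin of the basal layer, with 0.55 ± 0.31, and 0.09 ± 0.25 without SNI replicate 2. Their transcripts are long, with a median of 4095 nucleotides. Dst, which links keratins to the hemidesmosome, had a log2 fold change of -1.65 ± 0.62, and of -0.44 length-adjusted. Wound keratins had a median of 0.89, of 0.56 without SNI replicate 2 and of 0.54 length-adjusted with all 6. Krt16, which keratinocytes switch on at a wound edge, stood at 126, 139 and 118 CPM in sham and at 236, 3432 and 223 CPM in SNI, and its log2 fold change of 3.35 ± 1.08 went to 0.89 ± 0.77 without SNI replicate 2.

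Eccrine sweat glands, which in mice lie in the foot pads and are driven by nerve, had 10 of 12 listed genes negative, and their median was -0.45, or -0.29 without SNI replicate 2. Chrm3, the muscarinic receptor of the gland, stood at 1.96, 2.12 and 0.902 CPM in sham and at 0.741, 0.608 and 1.04 CPM in SNI, a log2 fold change of -1.05 ± 0.42. Its groups overlapped. Slc12a2, the chloride cotransporter of secretory cells, had -0.88 ± 0.27 without overlap of libraries, and 0.05 length-adjusted. Aqp5, the water channel that marks the secretory cells, stood at 159, 150 and 161 CPM in sham and at 114, 158 and 142 CPM in SNI.

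Receptors for neuropeptides did not share a direction. Of the 9 listed, 3 lay above every sham library in all 3 SNI libraries (beside 13.7% of all genes) and 3 below (beside 23.8%). The median was -0.43, and -0.16 without SNI replicate 2, and -0.21 length-adjusted with all 6. Ramp1, which turns the calcitonin receptor-like receptor into the receptor for CGRP, the peptide of sensory fibres, stood at 5.74, 8.25 and 8.22 CPM in sham and at 16.3, 59.0 and 11.1 CPM in SNI. Calcrl, its partner, stood at 19.2, 24.9 and 22.9 CPM in sham and at 28.1, 34.6 and 27.4 CPM in SNI. Adcyap1r1, the receptor of the peptide PACAP, stood at 7.32, 7.34 and 6.48 CPM in sham and at 9.85, 14.0 and 10.7 CPM in SNI. The log2 fold changes were 1.96 ± 0.62, 0.43 ± 0.18 and 0.71 ± 0.21, and without SNI replicate 2 they were 0.93 ± 0.51, 0.35 ± 0.19 and 0.59 ± 0.21. Tacr1, the substance P receptor, was on the lower side with -1.02 ± 0.62, beside Vipr1, a receptor of vasoactive intestinal peptide (-0.80 ± 0.43). Without SNI replicate 2 these were -0.66 ± 0.68 and -0.41 ± 0.39.

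The lists of vessels, axon guidance and neurotrophic receptors had negative medians, and their length-adjusted medians lay nearer to 0. Of 8 lymphatic endothelial genes 7 were negative, and their median was -0.88, -0.62 without SNI replicate 2, and -0.02 length-adjusted with and without it. Beside Lyve1, Prox1, the factor that defines lymphatic cells, stood at 1.07, 0.937 and 0.965 CPM in sham and at 0.721, 0.0608 and 0.443 CPM in SNI. Pdpn, a membrane protein of lymphatic cells and of many other cells, lay on the other side, with 0.72 ± 0.27. Of 12 blood endothelial genes 9 were negative, and their median was -0.64, -0.32 without SNI replicate 2, and -0.18 length-adjusted with and without it. The libraries did not overlap for 4 genes on the lower side (beside 23.8% of all genes) and for 2 on the higher side (beside 13.7%). Those 2 were Emcn, a mucin of capillaries and veins, and Cldn5, a tight junction protein. Emcn, with 0.37 ± 0.17, was the 1 gene of the list with an unadjusted p under 0.05 (beside 7.56% of all genes on the higher side). Of 13 axon guidance genes 12 were negative and 9 did not overlap, all lower in SNI (beside 23.8% of all genes). Their median was -0.77, and -0.39 without SNI replicate 2, and length-adjusted it was -0.21 with all libraries and -0.16 without SNI replicate 2. Slit3, a repellent ligand of Robo receptors, had -1.36 ± 0.73, and Plxna1, a receptor of semaphorins, -1.40 ± 0.82. Without SNI replicate 2 these were -0.96 ± 0.81 and -0.90 ± 0.86.

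Neurotrophic ligands had a median of 0.09, with 10 of 12 positive, and of 0.23 without SNI replicate 2. Their receptors had a median of -0.82, with 9 of 10 negative, and of -0.41 without SNI replicate 2, and of -0.52 length-adjusted with all 6. Ntrk3, the receptor of neurotrophin-3, stood at 2.08, 1.55 and 1.57 CPM in sham and at 1.22, 0.7 and 1.02 CPM in SNI, a log2 fold change of -0.81 ± 0.30. Of the Wnt pathway 14 of 15 genes were negative with all 6 libraries and 8 of 15 without SNI replicate 2, with medians of -0.33 and -0.12. Wnt4, a ligand of the epidermis, stood at 185, 148 and 134 CPM in sham and at 98.3, 92.1 and 90.9 CPM in SNI, a log2 fold change of -0.73 ± 0.21, which was -0.14 length-adjusted. Axin2, a target that feeds back on the pathway, had -1.41 ± 0.68. BMP and FGF pathway genes, taken as 1 list, had a median of -0.48, of -0.24 without SNI replicate 2 and of -0.26 length-adjusted with all 6. Vegfa, the main vessel growth factor, stood at 37.4, 44.6 and 32.1 CPM in sham and at 25.1, 15.4 and 17.3 CPM in SNI, a log2 fold change of -0.98 ± 0.35.

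Cell cycle genes showed no common direction without SNI replicate 2, with a median of 0.06, and 0.43 with it. Mki67, a marker of dividing cells with a long transcript, stood at 117, 34.4 and 31.7 CPM in sham and at 23.4, 13.1 and 9.66 CPM in SNI, with sham replicate 1 far above the rest. Nuclear genes of the respiratory chain were positive in 11 of 12 cases, and the median of 0.69 went to 0.37 without SNI replicate 2 and to 0.45 length-adjusted with it.

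**Figure D5:**
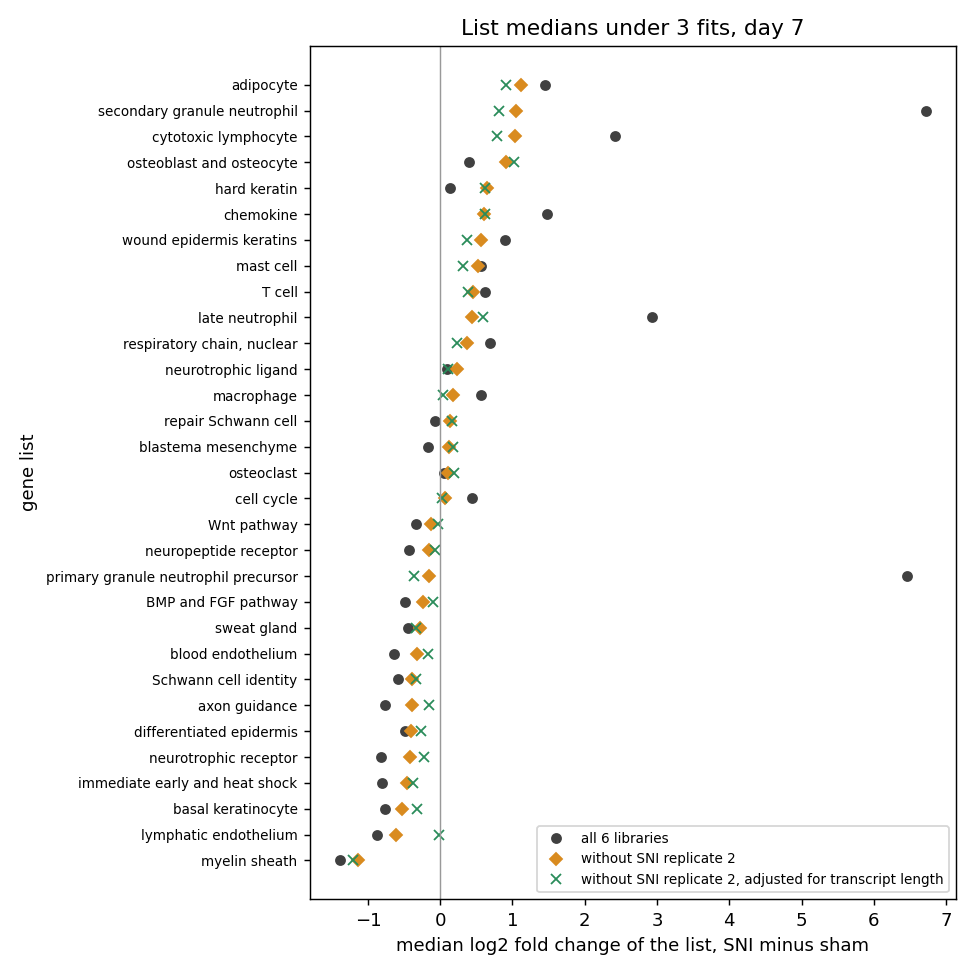
Median log2 fold change of SNI minus sham for each gene list (rows, in the order of the value without SNI replicate 2) with all 6 libraries (dark circles), without SNI replicate 2 (orange diamonds) and without it and length-adjusted (green crosses). The myelin list stays lowest at -1.39, -1.14 and -1.20, while the lymphatic list goes from -0.88 to -0.02 and the primary granule list from 6.45 to -0.16.

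The effect of SNI at day 7 was tested against its effect at days 14 and 21 for each gene, and edgeR called 0 genes in either test. At an unadjusted p under 0.05 there were 221 genes for day 14 (1.37%) and 1998 for day 21 (12.4%), the latter with 2 sham libraries at day 21. Of those 2, replicate 1 had a scaling factor of 0.633 and a length correlation of -0.493, against 1.10 and 0.278 in replicate 2. DESeq2 called 1 and 5 genes, and voom 53 and 0. Leaving out SNI day 7 replicate 2, edgeR called 0 genes in either test. The fold changes by day that follow used all 17 libraries. Dusp1 was on the lower side of sham at day 7 and on the higher side later, with a log2 fold change of 1.05 ± 0.40 at day 14 and of 0.97 ± 0.46 at day 21. Fos had 2.10 ± 0.86 at day 14 and 1.85 ± 0.99 at day 21. For both genes the SNI and sham libraries overlapped at day 14 and at day 21. The difference between day 7 and day 14 was -2.38 ± 0.57 for Dusp1 and -4.37 ± 1.21 for Fos on the log2 scale, and the adjusted p by edgeR was 1.00 for both. Mgp had 1.01 ± 0.22 at day 14 and 0.50 ± 0.25 at day 21, on the same side as at day 7. Cgref1 had -0.18 ± 0.27 at day 14 and -0.47 ± 0.30 at day 21, against 1.19 at day 7.

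In a second set of libraries, counted in a table of its own and normalized apart, SNI digits were sampled 7 days after amputation and beside them without amputation. CPM of this set are counts scaled to the library total alone, without trimmed-mean factors. Mbp stood at 37.5, 38.7 and 77.5 CPM with amputation and at 106, 106 and 98.4 CPM without. Gap43 stood at 6.64, 4.99 and 3.63 CPM with amputation and at 0.546, 0.409 and 0.358 CPM without. Fos stood at 117, 53.0 and 41.7 CPM with amputation, and at 14.4, 13.9 and 83.5 CPM without. For Mbp and Gap43 the libraries with and without amputation did not overlap, and for Fos they did. That set holds no sham library.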

How the data were processed

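The authors deposited raw counts per gene for each library of the time course in a table of 24411 genes and for the second set in another. The genome build was GRCm39, per the submitters' processing notes, while aligner and counting settings are not given in these sources. The labels' protocols describe poly(A) selection and a directional library kit. Groups and replicate numbers came from the labels. Counts were fitted with edgeR 4.0.16 in R 4.3.3: TMM factors, filterByExpr (minimum count 10, minimum total 15), a mean per group of surgery and day over 17 libraries, robust quasi-likelihood tests and Benjamini-Hochberg adjustment, with SNI minus sham at day 7 as the contrast. Without SNI replicate 2 the fit was repeated in full. Length-adjusted fits took out, by offsets, a lowess trend (span 0.3) of each library on transcript length from GENCODE release M21. Alternatives used DESeq2 1.42.0 and limma 3.58.1. The p-values and standard errors rest on the spread between biological replicates within the groups of all 17 libraries, not of the day 7 libraries alone. The members, the 48 gene lists and the rule for named genes were chosen with earlier results of these data known. By that rule the text names, where fewer than 5 genes are called, the 12 genes per direction with the smallest p without SNI replicate 2 among non-overlapping genes of at least 1 CPM with the same sign in both fits, and from each list its first members and up to 6 with the smallest p. Genes named beyond it were chosen after their values were seen. Tested on simulated counts of the 16084 genes in this design, the fit called 7.25% of 69 genes simulated with a 2-fold change. It called 60.3% of 68 with a 4-fold change and 88.9% of 63 with an 8-fold change. Changes were simulated only in genes of at least 1 CPM. The simulated counts held no deviating library and no length trend between the day 7 groups, so these rates cannot be taken as those in the data. Some genes are not reported here by name, but counts and medians of the lists include them.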

Additional observations from a re-analysis of the deposited data

How the results depend on the processing

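With edgeR, 0 genes were called between SNI and sham at day 7 under RLE factors, without the filter, with the 6 day 7 libraries alone, with length-adjusted offsets, without both libraries with a scaling factor under 0.8 (SNI day 7 replicate 2 and sham day 21 replicate 1), and without each day 7 library in turn; DESeq2 called 54 and voom with quality weights 7744. For the difference from day 14 DESeq2 called 1 gene and voom 53, and for that from day 21 DESeq2 called 5. The genes at an unadjusted p under 0.05, 2191 in the fit used, were 3316 with DESeq2, 9046 with voom, 3436 with the 6 libraries alone, 833 without both low-factor libraries and 481 length-adjusted without SNI replicate 2. Leaving out 1 library gave 376 (without SNI replicate 2) to 4329 (without SNI replicate 1), with 521 without sham replicate 1 and 1355 without sham replicate 2. The cause was not tested.

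The fit used took no pairing by replicate number. Deviations of same-numbered libraries from their group means correlated at 0.387, 0.241 and -0.0933, and those of differently numbered libraries at -0.398 to 0.269. With 3 libraries a group these values cannot decide whether the libraries were paired. With the replicate number as a block, edgeR called 0 genes and had 1829 under an unadjusted p of 0.05.

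The myelin median lay between -1.65 and -1.05 without 1 library and between -1.97 and -0.95 under the other settings. Of 1451 values of 97 named genes under alternatives, 16 in 11 genes changed sign. With voom Cnp was at -0.069, Mal at -0.20 and Msx1 at -0.28. Length-adjusted, Prex2 was at 0.22, Slc12a2 at 0.045 and Acp5 at -0.0075, and without SNI replicate 2 as well Mal was at -0.077 and Krt14 at -0.015. Cd3e was at 0.0050 without both low-factor libraries. Without 1 library in turn the log2 fold change ran from -0.21 to 0.49 for Acp5, from -0.46 to 1.92 for Bglap, from -0.11 to 0.0049 for Cd3e, from -0.052 to 0.13 for Cnp, from -0.092 to 0.60 for Ctsk, from -0.64 to 0.48 for Msx1 and from -0.12 to 0.64 for Ngfr. The length-adjusted fits and those without both low-factor libraries were added after the data were seen. Depth was even and limits genes under about 1 CPM, and 3 libraries a group with 1 that stood apart limit the rest.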

Other observations

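Genes of cholesterol synthesis, which Schwann cells need for myelin and keratinocytes for the skin barrier, did not move with the myelin list: 9 of 13 had a positive log2 fold change, with a median of 0.14 and of 0.10 without SNI replicate 2. Interferon response genes had a median of 0.18 with all 6 libraries and of -0.09 without SNI replicate 2, and inflammatory cytokine genes of 0.17 and 0.16. Length-adjusted with all 6 the median of the cytokine genes was -0.04. Cartilage genes had a median of -0.42 and of 0.03, and tendon genes of -0.15 and 0.32. The cartilage median was -0.004 length-adjusted with all 6 libraries. Melanocyte genes had medians of 0.01 and 0.17. Haemoglobin and other erythroid genes summed to 175, 609 and 526 CPM in sham and to 446, 1143 and 1024 CPM in SNI, and sham replicate 1, where long transcripts were most abundant, held the least of them. Haemoglobin genes lie in near-identical pairs between which reads can be split.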
